A study of Mus musculus with 25 samples.

Results

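Adipocyte genes and adipokines were followed through RNA-seq of mammary organoids, the epithelium-enriched fragments that remain after the mammary gland is digested with collagenase and trypsin. The set holds 10 genes, Adipoq, Lep, Retn, Cfd, Plin1, Cidec, Lipe, Lpl, Fabp4 and Pparg, of 34866 in the deposited table, chosen by name as well-known products of fat cells. All animals were Brca1/P53-deficient mice, a strain in which keratin 14 regulatory sequence drives Cre against both tumor suppressors. Recombination is therefore expected only in the part of the epithelium that uses this promoter, adipocytes are not its target, and every group carried the same alleles. The 25 libraries formed 5 groups of 5. Untreated multiparous mice and multiparous mice given a single injection of cabergoline, a dopamine D2 receptor agonist that stops prolactin release, were sampled 1 day after the second weaning. The same pair of groups was sampled 60 days after weaning, together with nulliparous mice matched to them in age. Multiparous mice had completed 2 pregnancies, the dose in the sample labels was 0.2 mg per kg, and the dose in the study's methods differs from it. The mice of the 60-day set were other mice than those of the 1-day set, so that time after weaning and set of mice cannot be told apart. The labels do not tie libraries to mice. The study counts its groups in mice, and for the untreated 60-day and the cabergoline-treated 1-day group some of its comparisons count fewer mice than the libraries used here, without the library left out being named in the sources used here. The p-values measure the spread between all libraries of a group.

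In the mammary gland, ducts and alveoli are embedded in a pad of white fat. During lactation the adipocytes lose most of their lipid while milk-producing epithelium fills the pad, and after weaning the epithelium dies back and the adipocytes fill with lipid again. Mature adipocytes release hormones and enzymes, the adipokines, coat their lipid droplet with perilipin and CIDE proteins, break the stored fat down with hormone-sensitive lipase, take up fatty acids that lipoprotein lipase frees from blood lipoproteins, and owe this program to the nuclear receptor PPARG. Digestion with collagenase and washing of the pellet remove floating fat cells, and in a bulk library fewer adipocytes and less RNA per adipocyte cannot be told apart.

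The adipokine genes were Adipoq for adiponectin (ENSMUSG00000022878.5, chromosome 16, 23146536 to 23158028), Lep for leptin (ENSMUSG00000059201.12, chromosome 6, 29060220 to 29073877), Retn for resistin (ENSMUSG00000012705.16, chromosome 8, 3655770 to 3660110) and Cfd for the protease adipsin (ENSMUSG00000061780.6, chromosome 10, 79890853 to 79892655). The lipid droplet genes were Plin1 for perilipin 1 (ENSMUSG00000030546.14, chromosome 7, 79720218 to 79732903) and Cidec, whose product fuses droplets (ENSMUSG00000030278.11, chromosome 6, 113424634 to 113435760). Lipe for hormone-sensitive lipase (ENSMUSG00000003123.15) lies on chromosome 7, 25379527 to 25398710, Lpl for lipoprotein lipase (ENSMUSG00000015568.16) on chromosome 8, 68880491 to 68907448, Fabp4 for the adipocyte fatty acid binding protein (ENSMUSG00000062515.3) on chromosome 3, 10204088 to 10208576, and Pparg (ENSMUSG00000000440.12) on chromosome 6, 115360951 to 115490399. Coordinates cover the whole protein-coding gene with its exons, introns and UTRs on GRCm38 in the GENCODE vM21 annotation. The Lipe and Pparg loci each overlap an antisense gene on the other strand, 4732471J01Rik and Gm44079, and the strand setting of the quantification is not given in the sources used here.

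The 2 promoters shown are those of Lep and Adipoq, since the ratio of these adipokines was higher in 9 of 10 libraries at 1 day than in any library at 60 days, as described below for leptin. Each window runs from 250 bases before to 50 bases after the transcription start in RefSeq (GRCm38.p6), both on the forward strand, Lep at chr6:29059971-29060270 and Adipoq at chr16:23146286-23146585. Capitals mark matches to TTNNGNAA, the core that C/EBP factors bind.
Lep: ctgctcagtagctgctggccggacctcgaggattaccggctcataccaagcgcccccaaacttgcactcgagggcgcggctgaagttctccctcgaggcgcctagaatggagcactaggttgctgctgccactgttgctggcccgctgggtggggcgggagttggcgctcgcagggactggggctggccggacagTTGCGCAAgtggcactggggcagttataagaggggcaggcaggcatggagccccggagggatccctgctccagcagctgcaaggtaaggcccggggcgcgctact
Adipoq: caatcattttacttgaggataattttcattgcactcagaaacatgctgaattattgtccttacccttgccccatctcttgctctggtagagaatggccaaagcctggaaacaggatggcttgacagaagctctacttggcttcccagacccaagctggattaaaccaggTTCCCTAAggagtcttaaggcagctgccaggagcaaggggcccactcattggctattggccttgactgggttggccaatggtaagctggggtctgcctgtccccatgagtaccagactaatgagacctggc

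The Lep match spans the bases 55 to 48 before the start and reads TTGCGCAA on both strands. The Adipoq match, 81 to 74 bases before the start, lies on the reverse strand. Of 32851 RefSeq promoters of the same length, 40.7% held at least 1 match to TTNNGNAA on either strand. Both strands were also searched for TATAAA, found in 13.6% of promoters, and for AGGNCA repeated in the same direction with 1 base between the copies, the element that PPARG and its partner RXR bind, found in 0.381%. The windows of Lep and Adipoq held neither. RefSeq promoters were matched for 8 of the 10 genes, all but Lpl and Fabp4, and none of their windows held the repeat. Plin1 held 3 matches to TTNNGNAA, Cidec and Pparg also held some, and Retn, Cfd and Lipe held none. No match overlapped a match to another motif in these windows.

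Levels are given as deposited, in TPM, a unit of transcript abundance that divides by transcript length and scales each library to the same total. Read counts cannot be recovered from it, and the depth of the libraries is therefore unknown. Together the 10 genes made up 0.018% to 0.0419% of the TPM of a 1-day library and 0.0143% to 0.168% of a 60-day library. A single transcript, Gm12895, took 28% to 56.8% of the TPM of each 1-day library and at most 10.5% at 60 days, and the genes of 8 milk proteins and secretory proteins summed to as much as 278343 TPM, which lowers every other value in those libraries. Folds were therefore computed after a median-of-ratios factor for each library, fitted anew within each comparison. Fitted over all 25 libraries, as for the ranks of libraries and the correlations with Adipoq, the factor ran from 0.263 to 0.933 over the 1-day libraries. Over the 60-day libraries it ran from 1.11 to 2. Some libraries stood apart from their group. Untreated replicate 3 at 1 day had 2169 TPM of milk genes, against 62159 or more in the other 9 libraries of that day, and 11 TPM of 10 epithelial genes. Untreated replicate 2 at 60 days had 44768 TPM of milk genes and 3844 TPM of epithelial genes, where the other untreated multiparous libraries of that time had 16.5 to 58.8 TPM of epithelial genes. Nulliparous libraries had 188 to 3204 TPM of epithelial genes. Cabergoline-treated libraries at 60 days had 18.6 to 348 TPM of epithelial genes and cabergoline-treated libraries at 1 day 454 to 984 TPM, so the epithelial markers of this preparation were low in several 60-day libraries. Muscle genes summed to 36606 TPM in untreated replicate 4 and 26445 TPM in cabergoline-treated replicate 3 at 60 days, to 10026 TPM in untreated replicate 3 at 60 days and to 5744 TPM in untreated replicate 3 at 1 day, against at most 3744 TPM in any other library.

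All 10 genes were present, and Fabp4, Lpl and Lipe were the most abundant of them at both times. At 60 days Fabp4 averaged 250 TPM, Lpl 129 TPM, Lipe 76.8 TPM and Cfd 51.5 TPM, with Pparg at 28.5 TPM. Plin1 (18 TPM), Retn (16.9 TPM), Cidec (16.8 TPM) and Adipoq (15.3 TPM) were close to each other, within less than the range between libraries, and Lep came last at 1.46 TPM. Fabp4, Lpl, Lipe and Pparg were above 1 TPM in all 25 libraries. At 1 day the means were 143 TPM for Fabp4, 75.2 TPM for Lpl, 45.7 TPM for Lipe, 14.6 TPM for Pparg and 11.6 TPM for Cfd, and Lep (5.16 TPM) came before Adipoq (3.05 TPM), Plin1 (2.83 TPM), Retn (2.59 TPM) and Cidec (1.98 TPM). Fabp4 is also made by capillary endothelium and macrophages, and Lpl by macrophages, muscle and lactating epithelium, so these are less specific to adipocytes. Lipe stood at 65.9 TPM and Pparg at 5.59 TPM in cabergoline-treated replicate 4 at 60 days, where Adipoq was listed at 0, so their levels did not depend on Adipoq being found. Adipoq and Cidec, by contrast, were listed at 0 in 1 and 2 of the 15 libraries, and Lep in 2.

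**Figure D1:**
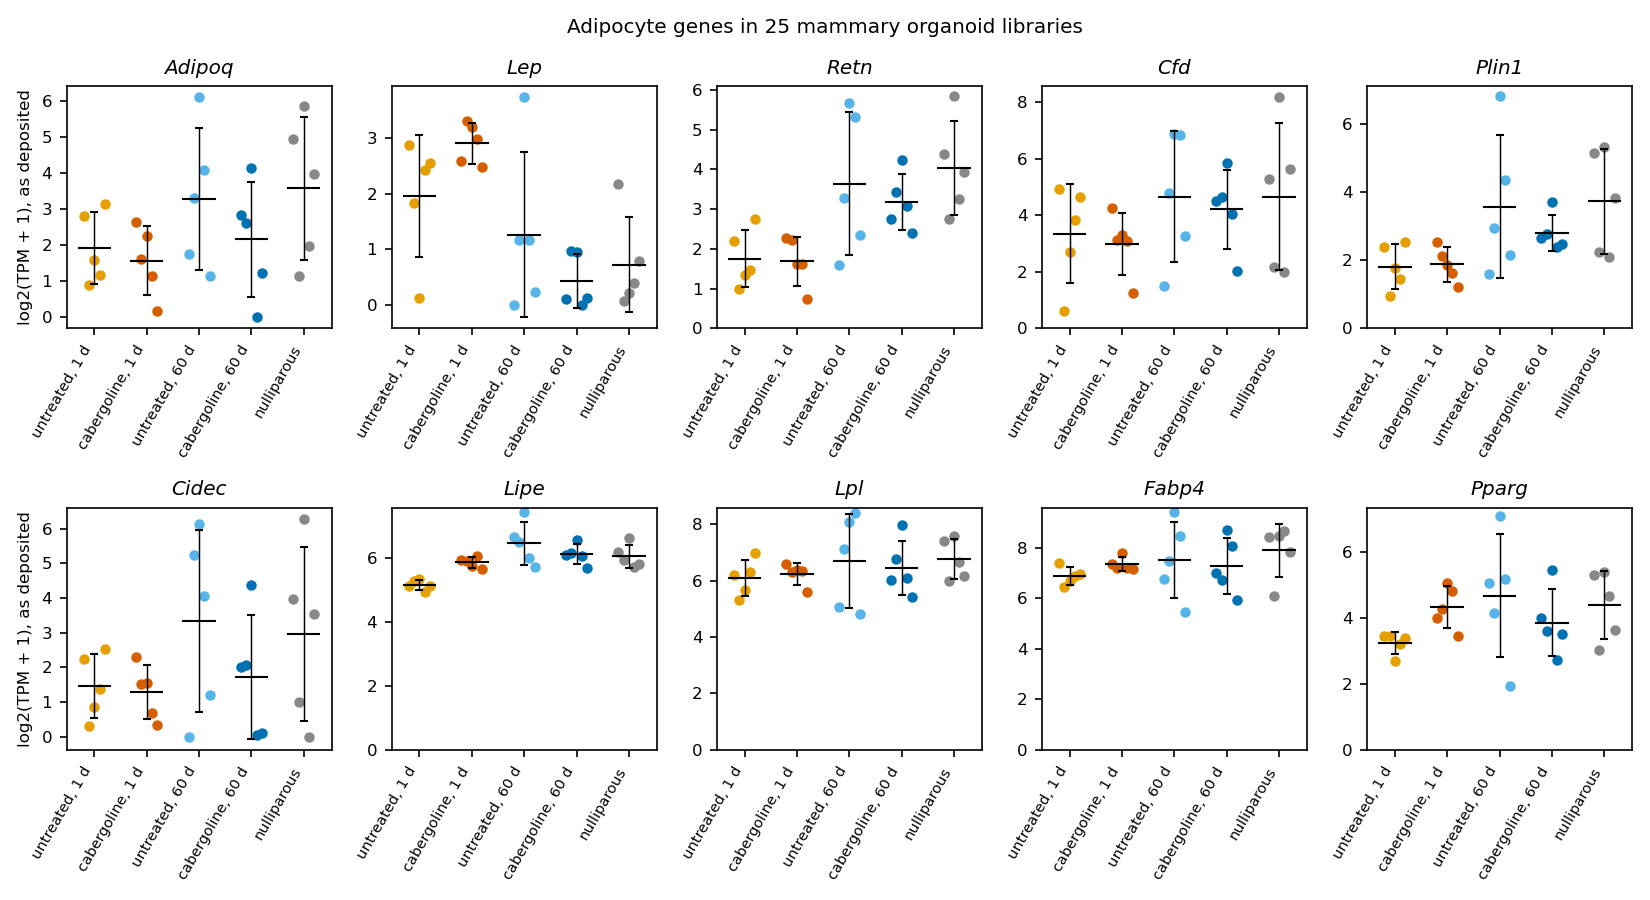
Levels of the 10 genes in each library as log2(TPM + 1) from the deposited TPM, by group (points are libraries, long bars are means and whiskers are SD over 5 libraries). The points of the 60-day groups overlap in every panel and spread least for Lipe, while Lep is high in 9 of 10 libraries at 1 day and below 1 TPM in 11 of 15 libraries at 60 days.

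Among the 3 groups at 60 days the levels of all 10 genes overlapped, and for most genes they spread widely from library to library. Adipoq, which is made almost only by adipocytes, stood at 2.4, 8.86, 67.7, 15.8 and 1.2 TPM in replicates 1 to 5 of the untreated 60-day group. It stood at 6.16, 5.11, 16.5, 0 and 1.32 TPM in the cabergoline-treated 60-day group and at 29.4, 1.23, 56.5, 2.9 and 14.7 TPM in nulliparous mice. All 3 groups thus held libraries near 1 TPM and libraries above 16 TPM. At 1 day the values were 6.06, 0.854, 2.02, 1.26 and 7.87 TPM without and 5.23, 2.08, 3.77, 1.23 and 0.133 TPM with cabergoline, and these overlapped as well. Perilipin 1 followed the same libraries at 60 days. Its values were 2, 6.7, 112, 19.5 and 3.42 TPM in untreated, 5.3, 5.8, 12, 4.2 and 4.56 TPM in cabergoline-treated and 34.4, 3.71, 39.2, 3.26 and 13.2 TPM in nulliparous mice. Untreated replicate 3, with 112 TPM, stood far above all others.

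Retn and Cfd, the other adipokine genes, showed the same libraries. Retn, which in mice is made by adipocytes, stood at 2.03, 8.63, 50, 38.8 and 4.11 TPM in untreated, at 5.77, 9.77, 17.7, 7.51 and 4.23 TPM in cabergoline-treated and at 19.8, 5.69, 56.3, 8.6 and 14.3 TPM in nulliparous mice at 60 days. Cfd stood at 1.82, 26.9, 116, 113 and 8.62 TPM in untreated, at 21.5, 24.3, 56.6, 15.5 and 3.07 TPM in cabergoline-treated and at 38.1, 3.55, 292, 3.02 and 48.8 TPM in nulliparous mice. Replicate 3 was the highest library of each group for both genes. Cidec ranged from 0 to 68.8 TPM in untreated, from 0.0372 to 19.7 TPM in cabergoline-treated and from 0 to 77.4 TPM in nulliparous mice. In the milk-rich untreated replicate 2 Cidec stood at 37.1 TPM, a ratio to Adipoq of 4.19. The other 60-day libraries with Adipoq above 0 had ratios of at most 1.37. At 1 day these genes had lower ceilings in TPM as deposited, Retn at 0.666 to 5.77 TPM, Cfd at 0.539 to 29.5 TPM and Cidec at 0.236 to 4.79 TPM, with overlap between untreated and cabergoline-treated libraries.

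The genes of fatty acid supply and the regulator Pparg differed from these in being above 1 TPM in every library. Lpl stood at 32.5, 138, 270, 342 and 27.2 TPM in untreated, at 63.6, 108, 250, 67.5 and 42.3 TPM in cabergoline-treated and at 169, 62.7, 193, 99.7 and 71.3 TPM in nulliparous mice at 60 days. Fabp4 stood at 109, 177, 680, 357 and 43.6 TPM, at 127, 105, 423, 273 and 60.4 TPM, and at 341, 68, 353, 404 and 231 TPM in the same groups. Pparg stood at 32.1, 16.6, 135, 35.3 and 2.82 TPM in untreated 60-day mice, where replicate 5 had the lowest level of that gene in any library, and at 38, 7.08, 40.6, 24.4 and 11.3 TPM in nulliparous mice. The groups overlapped for all of these genes.

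Cfd spanned the widest range at 60 days of the genes that were never listed at 0, 160-fold between 1.82 TPM and 292 TPM. Plin1 spanned 56.2-fold, Pparg 47.9-fold, Retn 27.8-fold, Fabp4 15.6-fold and Lpl 12.6-fold, while Lipe spanned only 3.43-fold, from 50.3 to 172 TPM. The highest library of the 60-day set was untreated replicate 3 for 6 genes, nulliparous replicate 3 for 3 genes and untreated replicate 4 for Lpl. On the scaled values, untreated replicate 3, cabergoline-treated replicate 3 and nulliparous replicate 1 were among the 5 highest of 15 libraries for all 10 genes. Nulliparous replicate 2 and cabergoline-treated replicate 5 were among the 5 lowest for all 10. Libraries rich in the whole set and libraries poor in it were therefore found in each of the 3 groups.

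**Figure D2:**
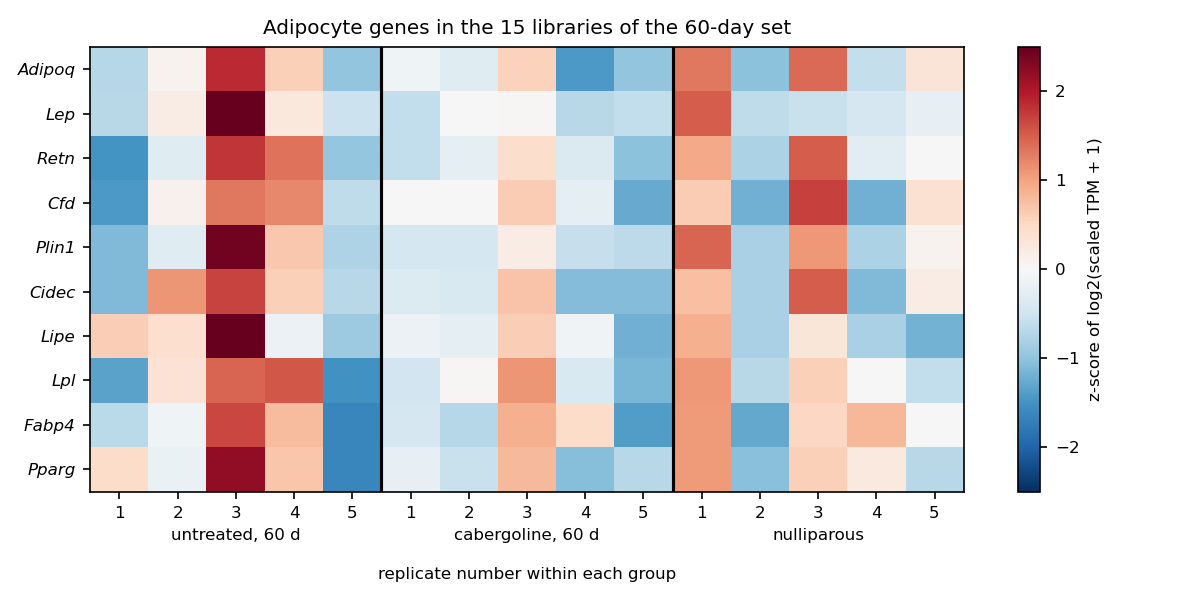
Scaled levels in the 15 libraries of the 60-day set, as z-scores of log2(scaled TPM + 1) over those libraries for each gene (rows), with libraries in columns by group and replicate number and colors ending at 2.5 in either direction. Untreated replicate 3, cabergoline-treated replicate 3 and nulliparous replicate 1 are red or pale red for nearly every gene, and nulliparous replicate 2 and cabergoline-treated replicate 5 are blue.

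The genes rose and fell together across these libraries. Over the 15 libraries at 60 days, Pearson's r with Adipoq on log2(scaled TPM + 1) was 0.927 for Plin1 (Spearman's rho 0.9), 0.923 for Cidec (0.87), 0.886 for Retn (0.875), 0.859 for Cfd (0.882) and 0.829 for Pparg (0.843). It was 0.801 for Lpl (0.786), 0.741 for Lep (0.765), 0.722 for Fabp4 (0.725) and 0.69 for Lipe (0.561). All 9 passed a two-sided permutation test of 100000 resamples, with adjusted p between 0.00016 and 0.00525 for r over 32 relations, and the smallest p these resamples can give is 1e-05. Leaving out both libraries farthest from the median of Adipoq, which were untreated and nulliparous replicates 3, gave r between 0.633 and 0.888 for 8 genes. For Lipe it gave 0.512 over 13 libraries, still positive but with a permutation adjusted p of 0.109, so that its call did not hold without those libraries. Removing the group means left r between 0.715 and 0.924 for all 9.

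Of the other cell types, adipocyte precursors and fibroblasts and skeletal muscle followed Adipoq over these libraries. The summed level of 11 genes of adipocyte precursors and fibroblasts followed Adipoq with r = 0.756 (rho 0.789, permutation adjusted p 0.00318 for r), and 0.835 without both extreme libraries. Skeletal muscle genes gave r = 0.572 (rho 0.621, permutation adjusted p 0.0403), with 0.502 (adjusted p 0.109) without these libraries and 0.669 (adjusted p 0.0094) with the group means removed. Endothelium gave r = 0.323, epithelium 0.222, milk-producing epithelium -0.13, lymphocytes -0.28 and macrophages -0.4, with permutation adjusted p between 0.179 and 0.694. Libraries rich in adipocyte genes were thus also rich in stromal genes and, less closely by r, in muscle genes, and the part of these cells in the spread of the adipocyte genes was not tested.

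The genes nearest to the set at 60 days included a perilipin, a fatty acid desaturase and the lactate receptor of fat among genes of other roles. The mean z-score of the 9 genes that passed the filter at 60 days (all but Lep) was compared with each of 18778 genes over the 15 libraries. Outside the set the highest r belonged to Gstz1 (0.912), an enzyme of tyrosine breakdown, Chpt1 (0.897), a phosphatidylcholine-making enzyme, and Plin4 (0.891), a perilipin of adipocytes. They were followed by the potassium channel gene Kcnk3 (0.884), Hcar1 (0.881), the lactate receptor that restrains lipolysis in fat, Ss18l2 (0.88), the fatty acid desaturase gene Scd1 (0.88), the bicarbonate transporter gene Slc4a4 (0.874), Car3 (0.873), a carbonic anhydrase abundant in adipocytes, and Fcor (0.862). These are descriptions over libraries that share their scaling. At 1 day the libraries fell into 5 with 11764 to 14179 genes at 1 TPM or more and 5 with 15238 to 16570, and the part of that split in correlations over all 10 was not tested. The same measure over these libraries and 14733 genes was led by Gnas (0.995), Hipk3 (0.99), Ccny (0.985), Shoc2 (0.985), Smim10l1 (0.985), Gpr146 (0.985), Ahr (0.984), Ppp1cb (0.984), Ppm1a (0.984) and Mob1b (0.983). The 10 genes of the set ranked between 55 for Lpl and 2984 for Pparg there, and Adipoq ranked 980.

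Whether cabergoline changed the adipocyte genes was asked at each time. At 1 day none of the 10 genes was called by limma at an adjusted p of 0.05, where 0% of 14733 genes were called and 287 (1.95%) had an unadjusted p at or below 0.05, none of them in the set. On the log2(scaled TPM + 1) scale, on which every fold change is given and which understates changes of low genes, 4 genes were higher and 6 lower, with a median of -0.25 beside 0.021 for all genes. Cfd had the largest value, -0.73 ± 1.05 (SE, n = 5 against 5), followed by Pparg at 0.70 ± 0.50 and Adipoq at -0.61 ± 0.72. The 95% interval of Adipoq ran from -2.22 to 1.01, which leaves its direction unresolved. Lep differed by 0.45 ± 0.61, and by -0.11 without untreated replicate 3, the library with little milk and epithelial RNA. Lipe stood at 33.4, 37.3, 39.1, 29.3 and 33.5 TPM without and at 60.4, 58, 52, 64.9 and 49.2 TPM with cabergoline at 1 day, without overlap in TPM as deposited. The share of all genes without overlap was not counted, so this does not set Lipe apart. The difference of Lipe was 0.70 ± 0.20 on unscaled values (adjusted p 0.593), beside a median of 0.33 for all genes. After scaling, which lets the groups overlap, it was 0.32 ± 0.32. With cabergoline 7 of 8 milk genes and 10 of 10 epithelial genes had higher means, none called, with medians of 1.70 and 0.92, and their part in these values was not tested.

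At 60 days cabergoline-treated libraries had lower mean log2 values than untreated ones for all 9 genes tested, and none was called, where 0% of 17644 genes were called (207, 1.17%, at an unadjusted p at or below 0.05, none in the set). The median log2 fold change was -0.57, beside -0.017 for all genes. Cidec stood at -1.70 ± 1.27, Adipoq at -1.21 ± 1.04, Pparg at -0.93 ± 0.88 and Plin1 at -0.88 ± 0.92, and the 95% intervals of all 9 included 0. The values moved with 1 library. Without untreated replicate 3 the values were -0.96 for Cidec, -0.46 for Adipoq, -0.27 for Pparg and -0.020 for Plin1, and Cfd, Lpl and Fabp4 changed sign to 0.057, 0.044 and 0.19. Lep was below the filter of 1 TPM in 5 libraries. Tested without the filter, it stood at -0.91 ± 0.67 with an adjusted p of 1. Of the other fat genes, 19 of 23 genes of fat storage and lipolysis were lower (median -0.59), such as Plin2 at -0.96 ± 0.92, and 11 of 12 adipogenic transcription factors were lower (median -0.59), such as Srebf1 at -1.01 ± 0.43. Lower values were also found for 8 of 9 other adipokines (median -0.52) and 6 of 9 adipokine receptors and lipoprotein lipase partners (median -0.19), and for 2 of 5 brown and beige fat genes (median 0.067). None of these genes was called. Lower values were not particular to fat genes. They were found for 6 of 8 epithelial genes (median -0.48), 6 of 7 milk genes (median -0.34) and 8 of 11 precursor and fibroblast genes (median -0.22). All 8 lymphocyte genes (median 1.10), all 8 muscle genes (median 0.52), 7 of 8 endothelial genes (median 0.20) and 6 of 8 macrophage genes (median 0.30) were higher. None of these was called, and the part of these cell types in the values of the fat genes was not tested.

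**Figure D3:**
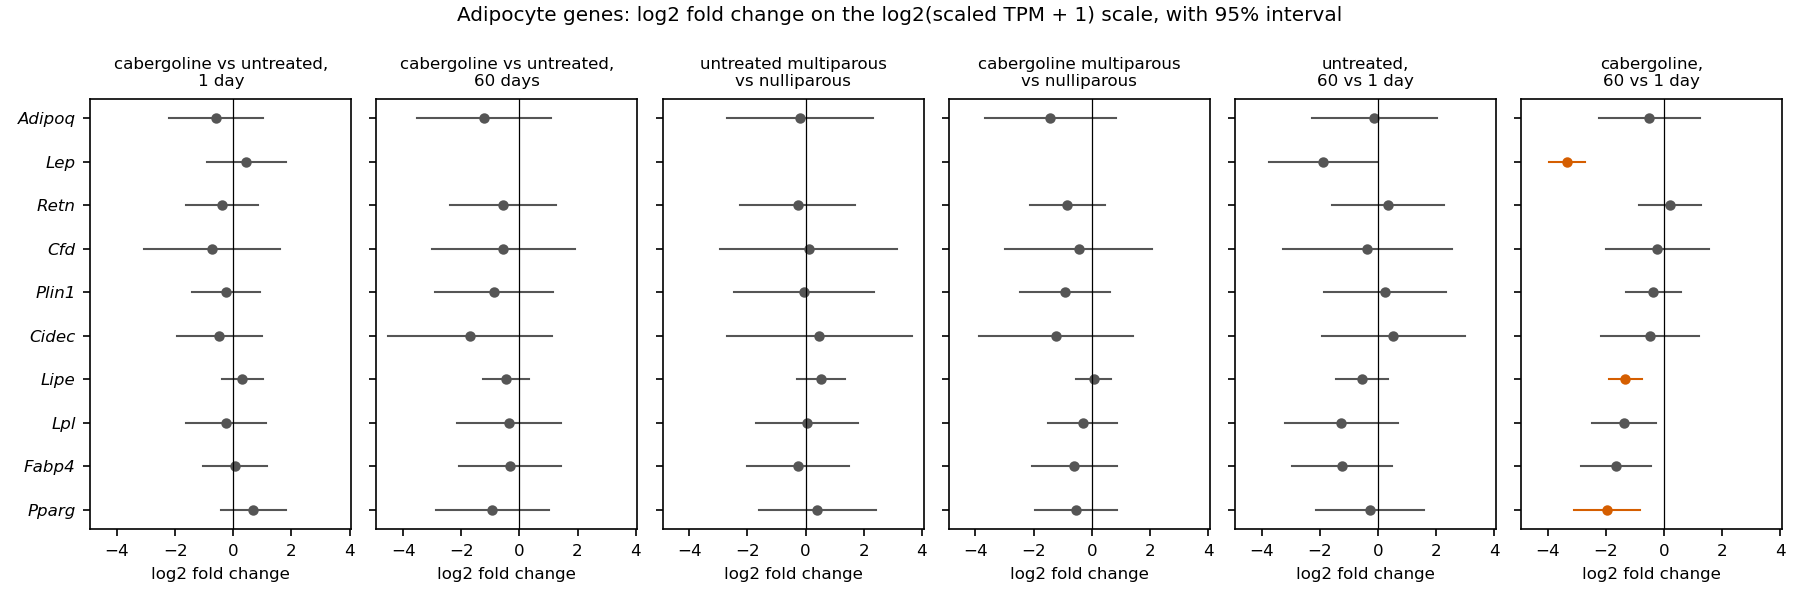
Log2 fold change of each gene on the log2(scaled TPM + 1) scale in 6 comparisons (points) with its 95% interval from limma (lines), in orange where the adjusted p was at or below 0.05. Orange points are found only in the comparison of cabergoline-treated mice at 60 days with 1 day, for Lep, Lipe and Pparg, and Lep has no point in the 3 comparisons within the 60-day set, where it was below the filter.

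Parity was asked against the nulliparous mice, which both multiparous groups share as controls. In untreated multiparous mice 5 of the 9 genes tested were higher and 4 lower, with a median of 0.053 beside -0.034 for all genes. None was called, where 0% of 17960 genes were called (441, 2.46%, unadjusted, none in the set). The values ran from -0.28 ± 0.90 for Retn to 0.53 ± 0.38 for Lipe. Without untreated replicate 3, 8 of the 9 were lower, among them Cidec (-0.27) and Pparg (-0.26), and Lipe stood at 0.23. Of the fat storage and lipolysis genes 18 of 23 were higher (median 0.27) and of the adipogenic transcription factors 12 of 12 (median 0.36), none called, with Srebf1 at 0.65 ± 0.59. In cabergoline-treated multiparous mice 8 of 9 genes were lower, with a median of -0.60 beside -0.047, and again none was called, where 0% of 18077 genes were called (878, 4.86%, unadjusted, none in the set). Adipoq stood at -1.42 ± 1.02, Cidec at -1.23 ± 1.20, Plin1 at -0.93 ± 0.70 and Retn at -0.85 ± 0.59, while Lipe was at 0.064 ± 0.28. In the same comparison all 10 epithelial genes were lower, each at an unadjusted p at or below 0.05 and none called, with a median of -2.90. In untreated mice all 10 were lower too (median -2.80), none called. In the cabergoline-treated mice all 8 lymphocyte genes (median 1.40) and all 8 muscle genes (median 0.92) were higher than in nulliparous mice, none called, and the part of these differences in the adipocyte genes was not tested.

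Leptin had the largest scaled change between the times of the genes in the set. In the main fits that change was called in cabergoline-treated mice and not in untreated mice. At 1 day Lep stood at 6.34, 2.55, 0.0961, 4.34 and 4.84 TPM in replicates 1 to 5 of the untreated mice. With cabergoline it stood at 4.97, 8.89, 8.14, 6.87 and 4.54 TPM. Only untreated replicate 3 was low, the library with little milk RNA. At 60 days the values were 0, 1.26, 12.3, 1.26 and 0.179 TPM in untreated and 0.0791, 0.968, 0.934, 0 and 0.0956 TPM in cabergoline-treated mice. Nulliparous mice had 3.51, 0.0592, 0.16, 0.316 and 0.726 TPM. The medians ordered the groups from cabergoline-treated at 1 day (6.87 TPM) through untreated at 1 day (4.34 TPM), untreated at 60 days (1.26 TPM) and nulliparous (0.316 TPM) to cabergoline-treated at 60 days (0.0956 TPM), and each neighboring pair in that order overlapped.

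In cabergoline-treated mice Lep fell from 12 ± 4.25 scaled TPM (SD, n = 5) at 1 day to 0.235 ± 0.279 scaled TPM at 60 days, without overlap. The log2 change was -3.35 ± 0.28 (SE) with a limma adjusted p of 4.68e-05. All libraries of the 60-day group were below 1 TPM, so Lep passed the filter only through the 1-day libraries. The share of all genes without overlap was not counted. Of the 10 genes 3 were called, all lower, where 21.4% of 16457 genes were called (1501 higher and 2013 lower), so that the count in itself does not set these genes apart. The decrease of Lep did not hinge on the scaling, since the TPM as deposited gave -2.47 ± 0.30 (adjusted p 0.000137). Its size hinged on the pseudocount, and 0.1 in place of 1 gave -5.53. Leaving out any 1 library, without the filter on low values, gave -3.59 to -3.22 and a highest adjusted p of 0.00108. In untreated mice, where 1.21% of 16312 genes were called and none of the 10 (1, Lep, at an unadjusted p at or below 0.05), Lep stood at -1.89 ± 0.85 (adjusted p 0.244). Without untreated replicate 3 at 1 day it stood at -2.55 ± 0.67 (adjusted p 0.0658), and without that library and the milk-rich replicate 2 at 60 days at -2.42 ± 0.71 (adjusted p 0.0632).

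The ratio of Lep to other adipocyte genes within a library needs no scaling. Per TPM of Adipoq there were 1.05, 2.99, 0.0475, 3.43 and 0.616 TPM of Lep in the untreated libraries at 1 day. With cabergoline there were 0.95, 4.27, 2.16, 5.58 and 34.1. In the 14 libraries at 60 days in which Adipoq was above 0 the ratio was between 0 and 0.189, so that 9 of 10 libraries at 1 day lay above all of them. Plin1 as the denominator gave the same count, 9 of 10 libraries above the highest ratio at 60 days of 0.188, as did Retn, Cfd, Fabp4 and Pparg. The count was 8 of 10 against Lipe and Lpl and 7 of 10 against Cidec. How many of all genes would give such counts was not examined. Lep was below 1 TPM in 11 of 15 libraries at 60 days, so these ratios rest on low values. Even untreated replicate 3 at 60 days, with the most Lep of all 25 libraries (12.3 TPM), had 67.7 TPM of Adipoq beside it.

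**Figure D4:**
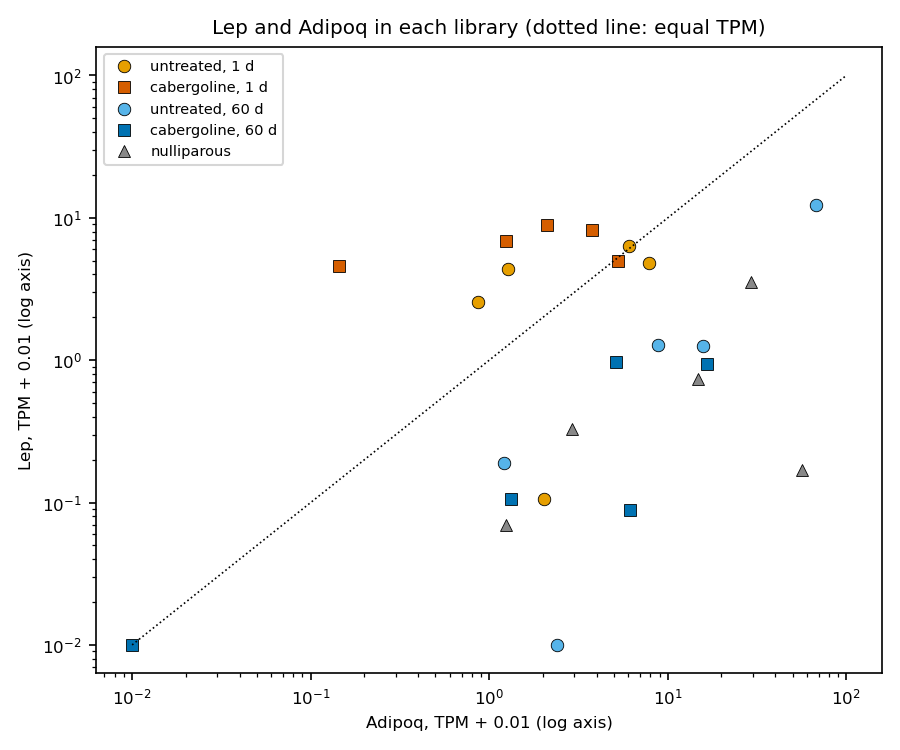
Lep against Adipoq in each of the 25 libraries, both as deposited TPM with 0.01 added on log axes, the dotted line marking equal TPM. Libraries at 1 day (orange) lie around or above the line except untreated replicate 3, and all libraries at 60 days with Adipoq above 0 (blue and gray) lie below it, at ratios of at most 0.189.

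At 1 day the library lowest in milk genes was also the lowest in Lep, and no correlation of these was computed. The 9 libraries with 62159 to 278343 TPM of milk genes had 2.55 to 8.89 TPM of Lep, and the library with 2169 TPM had 0.0961 TPM. The milk-rich untreated replicate 2 at 60 days, with 44768 TPM of milk genes, had 1.26 TPM of Lep and a ratio to Adipoq of 0.142, within the range of its own set. Outside these libraries Lep was highest where Adipoq and Plin1 were highest, in untreated replicate 3 at 60 days, with 206 TPM of milk genes. Leptin is known mainly from adipocytes and has also been found in mammary epithelium and milk. The part of the milk-producing cells in the level of Lep was not tested.

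**Figure D5:**
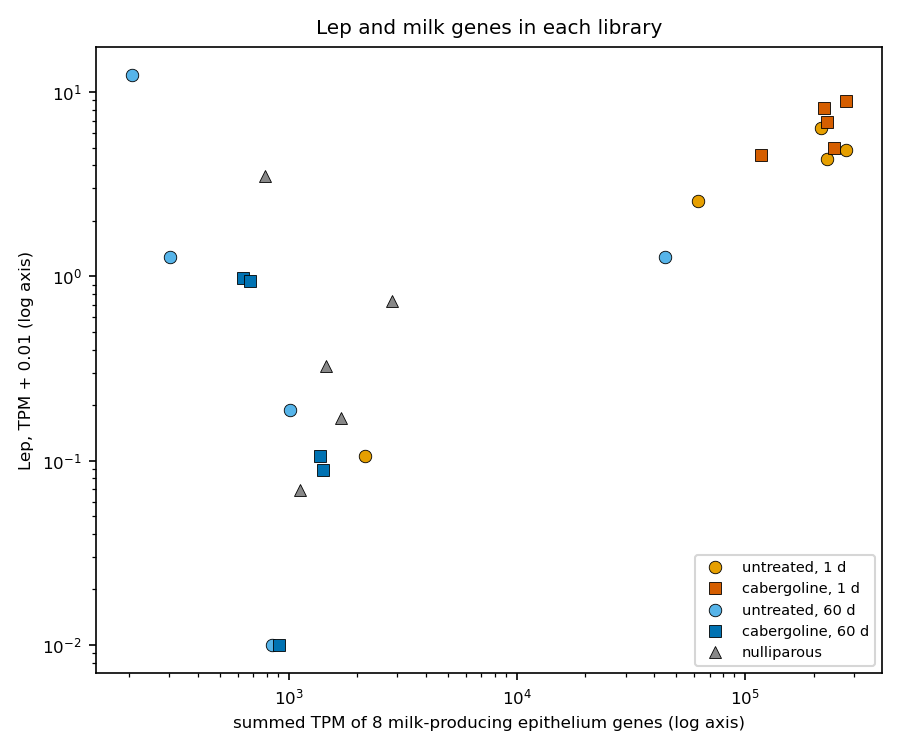
Lep, as deposited TPM with 0.01 added, against the summed TPM of 8 genes of milk-producing epithelium in each of the 25 libraries, both on log axes. The 9 libraries of the 1-day set with at least 62159 TPM of milk genes sit together at 2.55 to 8.89 TPM of Lep, and the libraries with at most 2850 TPM of milk genes range from 0 to 12.3 TPM of Lep.

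Lipe and Pparg were the other genes called in cabergoline-treated mice between 1 and 60 days. Lipe fell from 104 ± 37.1 to 39.9 ± 10.4 scaled TPM (SD, n = 5), without overlap, a log2 change of -1.33 ± 0.26 (adjusted p 0.0064), and Pparg from 37.9 ± 20.7 to 9.82 ± 8.82 scaled TPM, with overlap, by -1.96 ± 0.52 (adjusted p 0.0234). Fabp4 at -1.66 ± 0.54 (adjusted p 0.0516) and Lpl at -1.38 ± 0.50 (adjusted p 0.0728) lay just beyond the threshold. Adipoq (-0.50 ± 0.78), Cidec (-0.49 ± 0.76), Plin1 (-0.37 ± 0.43), Cfd (-0.23 ± 0.80) and Retn (0.20 ± 0.48) had smaller values. Adipoq and Plin1, both particular to adipocytes, and Cidec had intervals that included 0.

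The direction of Lipe and the calls of both genes depended on the scaling, unlike those of Lep. As deposited, Lipe was 60.4, 58, 52, 64.9 and 49.2 TPM at 1 day and 66.1, 70.2, 92.9, 65.9 and 50.3 TPM at 60 days in cabergoline-treated mice, which is no decrease. Pparg was 15.1, 18.4, 32.5, 26.9 and 9.99 TPM at 1 day and 14.9, 11.2, 42.7, 5.59 and 10.5 TPM at 60 days. On these values Lipe stood at 0.26 ± 0.21 (adjusted p 0.272) and Pparg at -0.47 ± 0.48 (adjusted p 0.385). Plin1 at 0.92 ± 0.34 (adjusted p 0.0282) and Retn at 1.49 ± 0.41 (adjusted p 0.00579) were called higher, where most of the 16457 genes tested were called. The scaling moved the median change of all genes from 1.40 on the TPM as deposited to 0.085. Relative to that median, Lipe, Pparg and Plin1 were lower and Lep much lower on either scale, and Retn lay near it. Without cabergoline-treated replicate 3 at 60 days, the library of that group richest in adipocyte genes, Fabp4 (-2.03, adjusted p 0.0164) and Lpl (-1.76, adjusted p 0.0147) were called too. Pparg lost its call in 5 of the 10 fits that left out 1 library. In those 10 fits between 1 and 5 genes of the set were called, beside 1988 to 4833 of all genes. Lipe alone was called when cabergoline-treated replicate 1, 3 or 4 at 1 day was left out. In those fits Lep had fewer than 5 libraries at 1 TPM and was not tested.

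In untreated mice the same genes had values of -1.26 ± 0.88 for Lpl, -1.24 ± 0.77 for Fabp4, -0.55 ± 0.41 for Lipe and -0.29 ± 0.84 for Pparg, with limma adjusted p between 0.384 and 0.865. Whether the change with time differed between cabergoline-treated and untreated mice was tested as the difference of the cabergoline effect at 60 days less that at 1 day. None of the 10 genes was called, where 0% of 18232 genes were called (256, 1.4%, unadjusted, none in the set). The largest differences were -1.62 ± 1.04 for Pparg and -1.30 ± 0.96 for Lep, and the latter was -0.60 ± 0.74 without untreated replicate 3 at 1 day.

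Other genes of the fat cell were read from lists of pathways. In the 5 comparisons other than time in cabergoline-treated mice, and in the difference of the cabergoline effect, no gene of the 12 lists was called. Over time in cabergoline-treated mice, 6 of 22 genes tested for fat storage and lipolysis were called, all lower at 60 days, 27.3% of the list where 21.4% of all genes tested were called, with a median of -0.15 over the list beside 0.085 for all genes. Plin2, which coats small lipid droplets and milk fat globules, fell by 4.76 ± 0.41 on the log2 scale (adjusted p 5.41e-05). Abhd5, the co-activator of adipose triglyceride lipase, fell by 3.54 ± 0.37 (adjusted p 0.000188), Pnpla2, the lipase itself, fell by 1.81 ± 0.33 (adjusted p 0.00404) and Gpd1, which supplies glycerol phosphate, fell by 2.72 ± 0.63 (adjusted p 0.0135). Plin4, the perilipin nearest to the set at 60 days, stood at 0.052 ± 0.68. On TPM as deposited the median of the list was 1.30 beside 1.40 for all genes.

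The shares called in the other fat lists are likewise to be read beside the 21.4% of all genes. Of the 12 adipogenic transcription factors 3 were lower (25%), Cebpb by -2.91 ± 0.32 (adjusted p 0.000247), Cebpd by -2.02 ± 0.35 (adjusted p 0.00323) and Cebpa by -0.72 ± 0.22 (adjusted p 0.0429). Cebpb and Cebpd act early in adipogenesis and are also induced in mammary epithelium after weaning. Among 9 adipokine receptors and partners of lipoprotein lipase, Angptl4, a secreted inhibitor of that lipase, was lower by -4.35 ± 0.48 (adjusted p 0.000268). Of 10 other adipokines, Lcn2 for lipocalin 2 (-8.20 ± 0.86, adjusted p 0.000188) and Agt for angiotensinogen (-2.04 ± 0.46, adjusted p 0.0115) were lower and Sfrp5, a Wnt inhibitor, was higher (1.92 ± 0.49, adjusted p 0.0208). Of 4 brown and beige fat genes tested only Cidea was called, at -7.71 ± 0.34 (adjusted p 5.02e-07). Cidea reached 1 TPM only in the 1-day libraries of this comparison and passed the filter through them alone. It stood at 62.4 to 169 TPM in cabergoline-treated mice at 1 day and at 0 to 0.105 TPM at 60 days, and in untreated mice at 60 days it reached 52.9 TPM in the milk-rich replicate 2 and 59 TPM in replicate 3, being a lipid droplet protein of brown adipocytes that milk-producing epithelium also makes. Ucp1, which defines brown adipocytes, was at or below 1.85 TPM in nearly all libraries and reached 117 TPM in untreated replicate 3 and 3.59 TPM in nulliparous replicate 3 at 60 days, the libraries richest in Adipoq.

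The milk and epithelial genes changed in the same comparison. All 8 milk-producing epithelium genes and all 10 epithelial genes were called lower at 60 days, led by Wap (-16.6 ± 0.50), Csn2 (-13.4 ± 0.49), Csn3 (-10.9 ± 0.74) and Lalba (-9.40 ± 0.66) and by Elf5 (-5.22 ± 0.40), Epcam (-5.54 ± 0.45), Cldn3 (-5.76 ± 0.65) and Cdh1 (-3.70 ± 0.46). Summed milk genes ranged from 118004 to 278219 TPM at 1 day and from 630 to 1421 TPM at 60 days in these mice. Of the precursor and fibroblast genes Cd34 (1.69 ± 0.35, adjusted p 0.00776) and Pi16 (1.52 ± 0.45, adjusted p 0.0371) were higher and Ly6a (-1.47 ± 0.36, adjusted p 0.0168) lower, among 10 tested. Of 8 endothelial genes Pecam1, Egfl7 and Tie1 were higher, of 8 macrophage genes C1qa and Cd14 were lower, and none of 8 skeletal muscle and 8 lymphocyte genes was called. The part of these cell types in the changes of Lep, Lipe, Pparg and the other genes of fat metabolism was not tested.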

How the data were processed

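RNA from organoids was depleted of ribosomal RNA and sequenced in paired ends. Per the labels, Salmon and the mouse build GRCm38 were used by the authors, and the deposited file gives TPM for 34866 genes in 25 libraries, of which 34582 received a symbol here. The annotation release is not given in the sources used here. The authors' own tests used edgeR, which needs counts. A TPM file holds none, and limma 3.58.1 in R 4.3.3 (lmFit, eBayes with trend) took its place.

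Within each comparison a median-of-ratios factor, from genes at 1 TPM or more in all its libraries, was divided out. A gene was tested if 5 or more libraries reached 1 TPM, as log2 of scaled TPM plus 1, and p-values were adjusted by Benjamini and Hochberg over every gene tested, at a threshold of 0.05. Only the groups compared entered a fit. Groups and replicate numbers came from the labels. Alternatives were no scaling, upper-quartile scaling, a pseudocount of 0.1, no filter, library quality weights, a replicate block, all 5 groups in 1 fit and leaving out each library. Leaving out both doubted libraries together, and leaving out single libraries without the filter for Lep, were chosen after seeing the data. The fit was tested on simulated data. No pair of the 300 library pairs was identical, and the highest correlation was 0.9765.

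The genes and the 12 lists were chosen with earlier results of these data known. The lists were fat storage and lipolysis, adipogenic transcription factors, adipokine receptors and lipoprotein lipase partners, other adipokines, brown and beige fat, adipocyte precursors and fibroblasts, epithelium, milk-producing epithelium, macrophages, endothelium, skeletal muscle and lymphocytes. Named were all 10 genes, up to 4 called genes with the smallest p of each list, and the 10 genes nearest to the set at each time, with others (Plin4, Ucp1, Srebf1 and Plin2 where not called) singled out after their values were seen. Lists without a call are given as counts. Python 3.11.15 with scipy 1.17.1 was used for correlations.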

Additional observations from a re-analysis of the deposited data

Results flagged for a closer look

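Of 50 groups of 5 libraries checked, 3 held a library far from the other 4 in log2(scaled TPM + 1), where chance flags about 5% of groups. The values given here are TPM as deposited. Lep stood at 12.3 TPM in untreated replicate 3 at 60 days, against at most 1.26 TPM in the rest of that group. Lep stood at 3.51 TPM in nulliparous replicate 1, against at most 0.726 TPM in the rest of the nulliparous group. Plin1 stood at 12 TPM in cabergoline-treated replicate 3 at 60 days, against at most 5.8 TPM in the rest of that group. All 3 libraries were among the 5 of 15 with the highest scaled values of all 10 genes.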

How the results depend on the processing

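Depth is unknown in TPM, and the values near 0 TPM of Lep, Cidec and Adipoq stand without a counting error. With 5 libraries a group and the spread described, the intervals of most genes span both directions. A pseudocount of 0.1 and no filter changed no direction or call of the 10 genes. The decrease of Lep in cabergoline-treated mice between 1 and 60 days kept its direction and call under every alternative in which it was tested, from -2.47 on TPM as deposited to -5.53 with a pseudocount of 0.1. Lep passed the filter only through the 1-day libraries, where it was high. With the filter it was therefore not tested in the fits that left out 1 of those libraries. The cause of the changes below was not tested.

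On TPM as deposited, values of the cabergoline effect at 1 day became 0.0625 for Plin1 and 0.136 for Lpl, those of untreated multiparous against nulliparous mice -0.00841 for Cfd and -0.0661 for Lpl, and the difference of the cabergoline effect -0.0927 for Cfd. Between 1 and 60 days in untreated mice 12043 of 16312 genes and 2 of the 10 (Retn and Lipe) were called. Values there were 1.35 for Adipoq, 1.31 for Cfd, 1.31 for Lipe, 0.594 for Lpl, 0.632 for Fabp4 and 1.44 for Pparg. In cabergoline-treated mice 12345 of 16457 genes were called, with 0.588 for Adipoq, 1.21 for Cfd, 0.92 for Plin1, 0.439 for Cidec, 0.256 for Lipe and 0.214 for Lpl. Of the 10 genes 3 were again called, but they were Lep, Retn and Plin1. With upper-quartile scaling Lpl stood at -0.00745 in untreated multiparous against nulliparous mice, and Fabp4 was called between the times in cabergoline-treated mice (-1.67, adjusted p 0.0486).

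With library quality weights the cabergoline effect called 1 gene at 1 day and 2 genes at 60 days, with -0.341 for Lep, -0.119 for Lipe and -0.746 for Fabp4 at 1 day. The parity comparisons gave -0.498 for Cfd, -0.868 for Cidec and 0.389 for Fabp4 in untreated mice, and 41 genes called and -0.234 for Lipe in cabergoline-treated mice. Between the times 8633 of 16312 genes and 2 of the 10 (Lep at -2.77 and Lipe at -1.07) were called in untreated mice. In cabergoline-treated mice 8649 of 16457 genes and 5 of the 10 were called, so that the count does not set the 10 genes apart. The difference of the cabergoline effect called 2 genes, with 0.0594 for Adipoq. With all 5 groups in 1 fit, 2 genes were called in each parity comparison and 1389 between the times in untreated mice, and Pparg in cabergoline-treated mice stood at -1.94 (adjusted p 0.076). Without untreated replicate 3 at 1 day and untreated replicate 2 at 60 days, an alternative chosen after seeing the data, 1500 genes and none of the 10 were called between the times in untreated mice, with -0.186 for Cidec, and the difference of the cabergoline effect was 0.0661 for Retn and 0.4 for Lpl. The likeness of milk genes to Adipoq was 0.0669 without both extreme libraries.

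Same-numbered libraries did not deviate together throughout any comparison, with correlations between -0.778 and 0.652 and no comparison in which all were above 0.1. At 60 days, cabergoline-treated and untreated libraries gave 0.375, 0.652 and 0.579 for replicates 1, 3 and 5. Replicates 2 and 4 gave -0.332 and -0.167. These values cannot tell whether the numbers pair some of the libraries. With the replicate number as a block, 7 of 16312 genes were called between the times in untreated mice. In cabergoline-treated mice 5 of the 10 genes were called, Lpl (adjusted p 0.0367) and Fabp4 (adjusted p 0.03) among them. That count is to be read beside the share of all genes called between the times in these mice, 21.4% in the main fit. The block changed no other call of the 10 genes.

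Leaving out 1 library at a time gave the following ranges where a direction, a call or a count changed. For the cabergoline effect at 1 day it gave -0.105 to 0.755 for Lep, -0.543 to 0.0344 for Plin1, -0.642 to 0.0963 for Lpl and -0.26 to 0.313 for Fabp4. For the cabergoline effect at 60 days it gave 0 to 1 genes called, -1.37 to 0.0569 for Cfd, -0.847 to 0.0912 for Lpl and -0.872 to 0.185 for Fabp4. For untreated multiparous against nulliparous mice it gave 0 to 1 genes called, -0.954 to 0.353 for Adipoq, -0.833 to 0.264 for Retn, -0.547 to 0.941 for Cfd, -0.91 to 0.478 for Plin1, -0.272 to 1.32 for Cidec, -0.386 to 0.543 for Lpl, -0.779 to 0.274 for Fabp4 and -0.26 to 1.1 for Pparg. For cabergoline-treated multiparous against nulliparous mice it gave -1.1 to 0.392 for Cfd and -0.059 to 0.224 for Lipe. For the change with time in untreated mice it gave 38 to 525 genes called, -0.822 to 0.347 for Adipoq, -0.166 to 0.822 for Retn, -1.23 to 0.358 for Cfd, -0.563 to 0.714 for Plin1, -0.141 to 1.19 for Cidec and -0.918 to 0.355 for Pparg. For the change with time in cabergoline-treated mice it gave 1988 to 4833 genes called, 1 to 5 of the 10 genes called, -0.15 to 0.486 for Retn, -0.791 to 0.307 for Cfd, -1.76 to -1.08 for Lpl, -2.03 to -1.27 for Fabp4 and -2.35 to -1.7 for Pparg. For the difference of the cabergoline effect it gave -0.812 to 0.385 for Adipoq, -0.619 to 0.398 for Retn, -0.566 to 1.06 for Cfd, -1.06 to 0.244 for Plin1, -0.549 to 0.369 for Lpl and -0.899 to 0.156 for Fabp4.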
